A study of Cricetulus griseus with 27 samples.

Results

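This comparison set 3 libraries of CHO-K1 cells from an osmotic culture against 3 libraries of CHO-K1 cells from a standard culture, over the mature miRNA entries named for the Chinese hamster (prefix cgr). CHO-K1 is an epithelial-like line from Chinese hamster ovary that is used to make recombinant proteins. The hamster entries numbered 351 of 4815 in the deposited count table, and the 6 libraries were taken from 27 in the series. Both cultures had 6 mM glutamine in 15 mL and were harvested on day 3; the osmotic culture also received 60 mM NaCl, which the labels equate with 120 mOsm/L. Cells of an ammonia culture (9 mM NH4Cl added, 3 libraries) were used as a reference group. The labels call the replicates biological. Neither the clonality of the line nor the way cells were parted from shed vesicles is stated in these sources.

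The library kit and the sequencing pool changed together with the culture. Standard libraries were made with NextFlex Combo-Seq, which captures mRNA and miRNA in 1 preparation, and osmotic and ammonia libraries with TruSeq Small RNA in another pool, per the labels' protocols. Read processing may differ as well: per the file headers the stressed libraries went through trimming and a length limit before counting. Every difference below between osmotic and standard cells is therefore a difference between culture, kit, pool and any such processing at once. These cannot be told apart. Levels in ammonia cells, which share kit and pool with osmotic cells, are given for many of the named entries. Fewer cells of a kind and less RNA per cell also cannot be told apart in such bulk samples.

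A miRNA is cut from a hairpin precursor, and either arm of the hairpin (5p or 3p) can be loaded into an Argonaute protein, where its seed pairs with target mRNAs and lowers their output. Usually 1 arm is kept and the other is degraded. Many miRNA genes lie next to each other and are transcribed together, and members of a family share a seed. Raised salt is a familiar condition in CHO production, where it slows growth and can raise the amount of product made per cell.

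Standard libraries held 132154 to 180764 counts, osmotic libraries 8219782 to 10374430 and ammonia libraries 5236151 to 6841978. A single count was therefore worth 5.53 to 7.57 CPM (the count scaled to 1000000 counts per library) in standard cells and 0.0964 to 0.122 CPM in osmotic cells, and 0 counts over the group allows up to 6.47 and 0.112 CPM. These floors cover counting error only. Hamster entries took 79.98% to 81.9% of counts in standard and 70.99% to 73.7% in osmotic libraries, and 185 to 207 and 204 to 251 of them were detected per library. Osmotic replicate 3 was the lowest of the 3 osmotic libraries in 36 of the 65 entries called higher and in 15 of the 28 called lower. How often it was the lowest over all tested entries was not computed. Of 16 entries on a list of markers of blood, muscle, liver and neural cells, 9 were at 0 in all 9 cell libraries, among them miR-142, miR-451a, miR-122, miR-124 and miR-206. The summed level of the list was 1395 to 1892 CPM in standard, 2048 to 2531 in osmotic and 3154 to 3931 in ammonia cells, almost all of it from miR-486-5p and miR-128-3p; its part in the results was not tested.

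Of the 351 hamster entries, 72 were at 0 in all 6 libraries, 279 were detected and 218 were abundant enough to be tested. Between osmotic and standard cells 93 were called (edgeR's quasi-likelihood test, adjusted p under 0.05), 65 of them higher and 28 lower in osmotic cells. Of the 402 entries of any species name tested 47.5% were called, 27.4% higher and 20.1% lower. Without regard to calls, the groups did not overlap for 120 of the 218 tested hamster entries, beside 59.2% of all tested entries in either direction. Among called entries they did not overlap for 63 of the 65 and for all 28. Calling itself selects for such separation, so these counts add no support. The median log2 fold change was +0.80 over the hamster entries and +0.59 over all entries tested. The direction of the calls differed with abundance. Among 52 hamster entries averaging at least 1000 CPM, 19 were called higher and 17 lower. Among the 166 below that level, 46 were higher and 11 lower. Depth differed as well, and rare entries can pass the filter through the deeper osmotic libraries alone. Of the tested hamster entries 7 were at 0 in every standard library and none was at 0 in every osmotic library. The part of filter and depth in this difference was not tested. Of the 65 called higher, 24 had fewer than 10 counts summed over the standard libraries and 6 had none, so their folds rest on few reads. Without osmotic replicate 3 the counts were 60 higher and 36 lower, out of fewer tested hamster entries than the 218. In that fit a larger share of all tested entries of any species name was called than in the main fit. The 60 and 36 therefore do not compare directly with the 65 and 28. In a fit of all 27 libraries, whose shared spread is larger, the counts were 27 and 3.

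**Figure D1:**
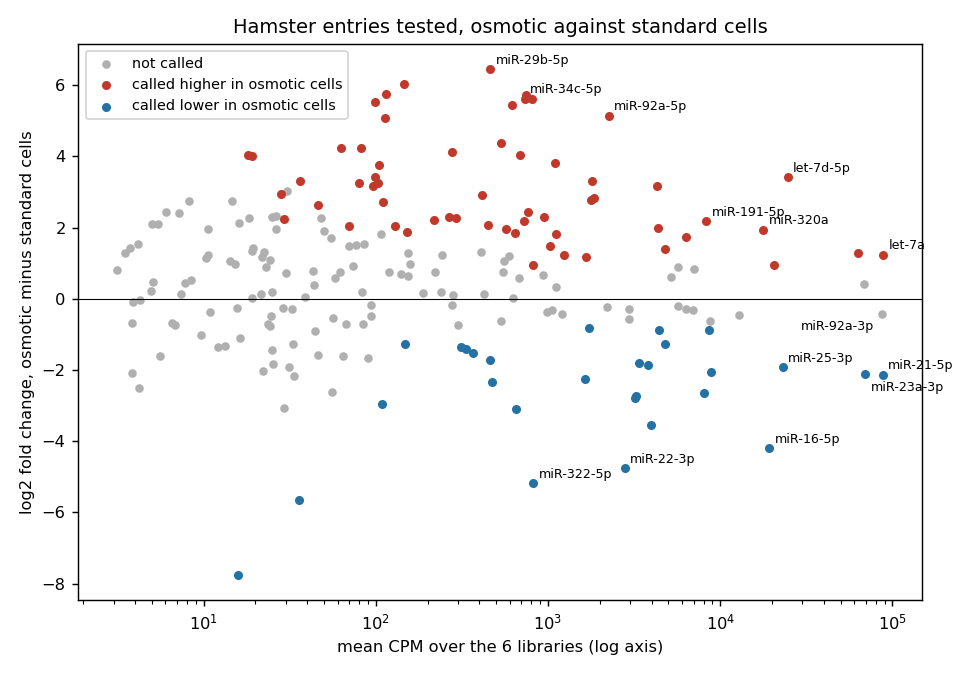
Log2 fold change between osmotic and standard cells (vertical axis) against mean CPM over the 6 libraries (horizontal axis, log scale) for the tested hamster entries; entries at 0 in every standard library are left out because they have no finite fold. Below 1000 CPM the called entries are mostly above 0, and above it they lie on both sides (19 and 17). The calls below 1000 CPM number 46 higher and 11 lower, where the 46 include 6 entries left out of the plot. Rare entries can pass the filter through the deeper osmotic libraries alone. Kit and pool changed with the culture.

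The order of the most abundant miRNAs differed between the cultures. cgr-miR-21-5p, which in many tissues lowers the translation inhibitor Pdcd4, ranked first in standard cells and sixth in osmotic cells. Its level was 127253, 142905 and 158258 CPM in the 3 standard libraries, 35663, 46100.3 and 15927 CPM in the osmotic libraries and 11093, 12042 and 11866 CPM in the ammonia libraries. It fell (log2 fold change −2.13 ± 0.34, SE, adjusted p = 0.000643), every osmotic library was below every standard one, and the ammonia libraries were lower still. cgr-miR-23a-3p, second in standard cells, read 88957, 120417 and 130778 CPM there and 22149.9, 29977 and 24642 CPM in osmotic cells. It fell by a like amount (−2.12 ± 0.27, adjusted p = 0.000141), to a level that overlapped the ammonia libraries at 20386, 25040.0 and 20626 CPM. cgr-miR-92a-3p, the most abundant product of the growth-linked miR-17-92 cluster, stood at 133526, 101447 and 70205 CPM in standard and 82318, 74944 and 61305 CPM in osmotic cells. The groups overlapped and it did not pass (−0.42 ± 0.23, adjusted p = 0.168); summed with the mouse entry of the same name, which fell, the change was −0.64 ± 0.23 and passed (adjusted p = 0.0459). In osmotic cells the first 3 ranks were taken by let-7a, let-7b and let-7f.

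cgr-let-7a, a member of the family that restrains growth and marks differentiated cells, rose from 48859.7, 52538 and 60779 CPM to 118221, 114379 and 137339 CPM (+1.23 ± 0.24, adjusted p = 0.00228). In ammonia cells it was 188790.0, 164419 and 159557 CPM, above all osmotic libraries. cgr-miR-320a, which is made from a hairpin that needs no cut by Drosha, rose from 11282, 6423 and 5261 CPM to 31214, 25439 and 26695 CPM (+1.94 ± 0.28). cgr-miR-191-5p, expressed in most cell types, rose from 4586, 2915 and 1959.5 CPM to 12152, 14762 and 13411 CPM (+2.17 ± 0.30). For both of these the ammonia libraries overlapped the osmotic ones, at 24680.0 ± 5565 CPM (mean ± SD, n = 3) and 12694 ± 2086 CPM. cgr-miR-25-3p, of a cluster related to miR-17-92 and ranked seventh in standard cells, fell from 36508 ± 3513 CPM to 9578 ± 4752 CPM (−1.92 ± 0.35). The entry miR-1260, ranked ninth, did not pass (−0.46 ± 0.44) except without osmotic replicate 3 (−1.24, adjusted p = 0.00981).

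Among the entries that rose and reached 50 CPM in either group (54, with no overlap), the 12 largest included 6 whose standard libraries held at most 2 counts each. cgr-miR-199a-5p, known from mesenchymal cells, had 0 counts in every standard library. It read 116, 139.6 and 67.3 CPM in osmotic cells, at least 16.6-fold above the group floor of standard cells, and 53.8, 90.0 and 39.2 CPM in ammonia cells. cgr-miR-29b-5p, the usually discarded arm of a hairpin whose other arm limits collagen and other matrix mRNAs, had 2, 2 and 1 counts in the standard libraries, or 15.1, 11.1 and 6.64 CPM. In osmotic cells it read 913, 904 and 918 CPM, 3 closely grouped libraries, and in ammonia cells 1068, 812 and 1083 CPM (+6.45 ± 0.48 against standard cells, adjusted p = 6.38e-06). cgr-miR-92a-5p, likewise the minor arm of its hairpin, was better covered, with 23, 19 and 16 counts. It rose from 174, 105 and 106 CPM to 4903, 4907 and 3312 CPM (+5.15 ± 0.34, adjusted p = 3.46e-06), and ammonia cells held 2708, 1909.8 and 3083 CPM, below all osmotic libraries.

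cgr-miR-34c-5p, of the p53-induced miR-34 family that slows the cell cycle, had 1, 9 and 4 counts in the standard libraries (7.57, 49.8 and 26.6 CPM). Osmotic libraries held 1354, 2157 and 809 CPM and ammonia libraries 894, 529.5 and 510.5 CPM, so the 2 stressed groups overlapped while both lay above standard cells (+5.62 ± 0.62, adjusted p = 6.67e-05; +4.93 without standard replicate 1 and +6.38 without standard replicate 2). cgr-miR-30a-5p, whose family lowers the autophagy gene Becn1, rose from 45.4, 22.1 and 19.9 CPM to 1407, 1611 and 607 CPM (+5.43 ± 0.53). It was 300.5, 298 and 307 CPM in ammonia cells, below every osmotic library. cgr-miR-148b-3p, which targets the DNA methyltransferase Dnmt1, rose from 45.4, 33.2 and 19.9 CPM to 1938, 2509.7 and 313 CPM (+5.61 ± 0.77), and osmotic replicate 3 lay inside the ammonia range of 128.5, 133.6 and 402 CPM. cgr-miR-101b-3p, of the family that lowers the chromatin gene Ezh2, rose from 7.57, 33.2 and 39.9 CPM to 1920.0, 1986 and 509.6 CPM (+5.72 ± 0.70; +5.06 without standard replicate 1), with the same low osmotic library. Ammonia libraries held 480, 459 and 698 CPM and overlapped the osmotic range.

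The other 5 of these 12 were thinly counted in standard cells. cgr-miR-140-3p, known from cartilage, had 11, 13 and 0 counts there and read 964, 1314 and 776 CPM in osmotic cells (+4.36 ± 0.74). miR-350-5p had 2, 0 and 0 counts and rose to 287 ± 155.2 CPM (+6.03 ± 0.99); without standard replicate 1 the standard group was at 0, and without standard replicate 2 the change was +5.37. cgr-miR-93-3p, the minor arm of miR-93, had 1, 0 and 1 counts and rose to 225 ± 91.7 CPM (+5.75 ± 0.84); it was +5.09 without osmotic replicate 3, +5.09 without standard replicate 2 and +3.87 ± 0.64 when summed with the mouse entry. miR-455-3p had 0, 2 and 0 counts and rose to 193 ± 86.4 CPM (+5.53 ± 0.94); without standard replicate 2 the standard group was at 0, and without standard replicate 1 the change was +4.78. miR-671-3p had 0, 1 and 2 counts and rose to 221 ± 90.4 CPM (+5.09 ± 0.81); it was +4.35 without standard replicate 1 and +6.18 without standard replicate 3. In 10 of the 12, osmotic replicate 3 was the lowest osmotic library, and the share over all tested entries was not computed. The ammonia libraries overlapped the osmotic ones for miR-140-3p and miR-93-3p and lay below them for miR-350-5p, miR-455-3p and miR-671-3p.

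Entries that fell and reached 50 CPM without overlap numbered 27, and most were well counted in both groups. cgr-miR-16-5p, which lowers cyclins and other cell cycle genes and ranked eighth in standard cells, fell from 30979, 38448 and 39756 CPM to 1976, 2569 and 1372 CPM (−4.19 ± 0.31, adjusted p = 6.38e-06). That is 18.5-fold lower by group means, and ammonia libraries held 777, 1511 and 1089.5 CPM. cgr-miR-22-3p, another widely expressed miRNA, fell from 5274, 3784 and 7068 CPM to 224, 239.8 and 131 CPM (−4.75 ± 0.39, adjusted p = 1.04e-05), within the spread of ammonia cells at 68.3, 144 and 249 CPM. cgr-miR-322-5p, the rodent counterpart of human miR-424 and a relative of miR-16, fell from 1695, 1383 and 1714 CPM to 16.5, 78.0 and 35.7 CPM (−5.18 ± 0.58, adjusted p = 7.62e-05; −5.80 without osmotic replicate 2). The mouse entry of the same name rose from a mean of 26.8 to 155.5 CPM (+2.51, adjusted p = 0.00731), so it was the rarer of the 2 in standard cells and the more abundant in osmotic cells. The 2 entries summed fell by 3.13 on the log2 scale (adjusted p = 0.000373), less than the hamster entry alone.

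cgr-miR-29a-3p, the abundant matrix-regulating member of the miR-29 family, fell from 17222, 12530.1 and 12196 CPM to 1882, 2691 and 1913 CPM (−2.64 ± 0.26, adjusted p = 2.91e-05). The mouse entry of the same name moved the other way, from 218 to 5289.8 CPM on average (+4.65, adjusted p = 9e-06). Summed, the fall was 1.01 on the log2 scale (adjusted p = 0.0173), smaller than the fall of the hamster entry alone. For cgr-miR-24-3p, a partner of miR-23 and miR-27 in 2 clusters, the change from 5486, 5847 and 5547 CPM to 640.2, 1029 and 701 CPM was −2.80 ± 0.29 and the summed value −1.97 ± 0.31. cgr-miR-369-3p of the imprinted Dlk1-Dio3 region fell from 749, 835 and 777 CPM to 160.5, 163 and 136.2 CPM (−2.33 ± 0.34), and cgr-miR-18a-5p of the miR-17-92 cluster fell from 1127, 1034 and 1362 CPM to 139, 173 and 97.5 CPM (−3.09 ± 0.36).

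miR-374-5p fell from 7268 ± 921 CPM to 613 ± 167 CPM (−3.54 ± 0.33) and miR-425-5p, made beside miR-191, from 2712 ± 88.1 CPM to 559 ± 101 CPM (−2.25 ± 0.28). miR-365-3p fell from 5647 ± 1442 CPM to 802 ± 303 CPM (−2.72 ± 0.37; −3.35 without osmotic replicate 3), while a rarer entry named miR-365 with no arm rose (+2.73 ± 0.63; +2.12 without standard replicate 1), and how reads were divided between the 2 names is not given. miR-29b-3p, the main arm opposite miR-29b-5p, fell from 193 ± 88.6 CPM to 25.2 ± 21.2 CPM (−2.96 ± 0.72; −3.85 without osmotic replicate 1). cgr-miR-377-3p, also of the Dlk1-Dio3 region, had 4, 16 and 14 counts in standard and 35, 0 and 0 in osmotic cells (−5.66 ± 1.81, adjusted p = 0.0274). That call was lost without standard replicate 2 (adjusted p = 0.08) or standard replicate 3 (0.057), without osmotic replicate 1 the osmotic group was at 0, and without osmotic replicate 2 the change was −4.97. The 39 called entries not named by the rule were 35 higher, of which 5 were at 0 in every standard library and the rest changed by +0.96 to +4.23, and 4 lower, from −7.75 to −1.28.

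**Figure D2:**
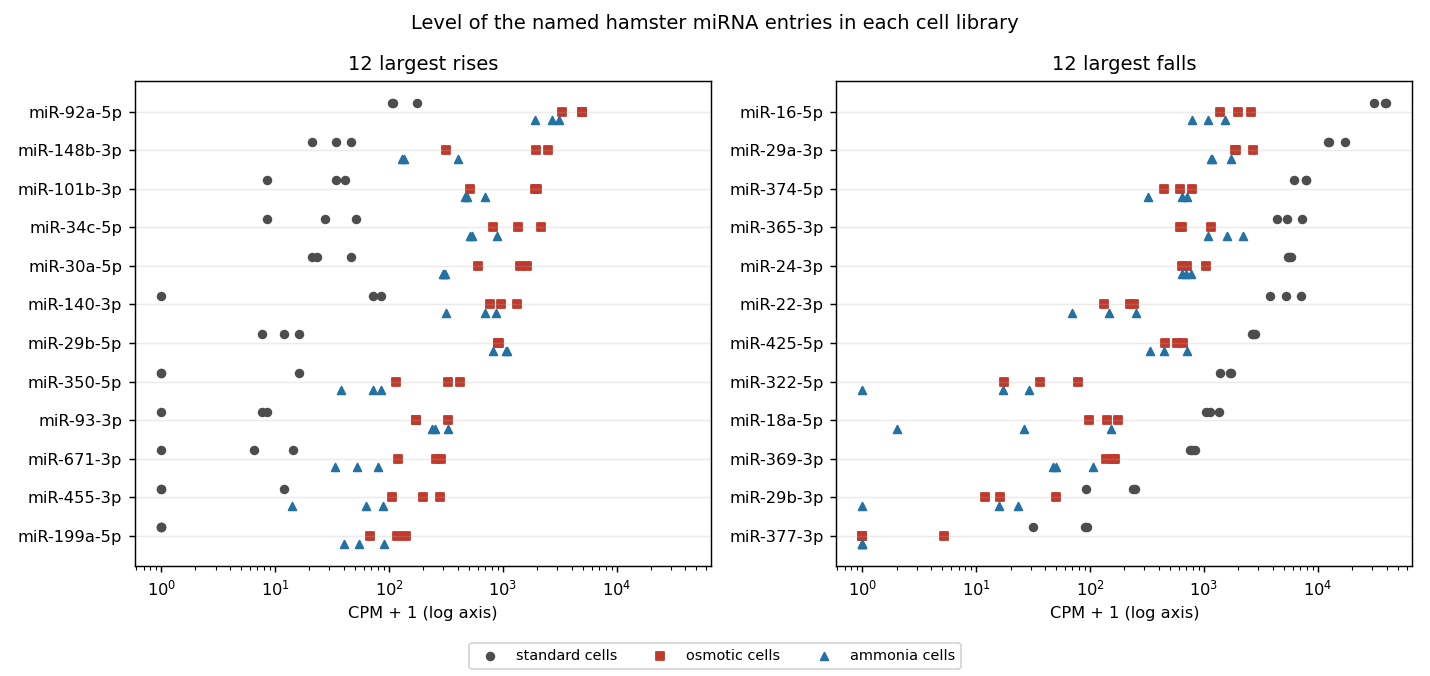
Level in each cell library (CPM + 1, log axis) of the 12 hamster entries with the largest rises (left) and the 12 with the largest falls (right) among called entries that reached 50 CPM in either group without overlap; each point is 1 library, 3 per group. Every osmotic point lies beyond every standard point in the direction of the call. Ammonia points, from the same kit and pool as the osmotic ones, are, for example, 777 to 1511 CPM for miR-16-5p against 1372 to 2569.

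The let-7 family took 20.2%, 20.8% and 23.1% of hamster counts in the standard libraries and 48.8%, 44.6% and 56.7% in the osmotic libraries. Ammonia libraries were higher again, at 69.4%, 60.8% and 60.4%. The osmotic and standard groups, which also differ in kit and pool, did not overlap (exact permutation test, two-sided, p = 0.1, the smallest that 3 against 3 can give). Of 8 family members tested 5 rose and 0 fell, with a median log2 fold change of +1.09. Among all entries tested 27.4% rose and 20.1% fell, with a median of +0.59, and each family or list below is to be read against these shares. cgr-let-7d-5p changed most among the abundant members, from 5319.6, 4188 and 3687 CPM to 44870.3, 39582 and 49960.5 CPM (+3.42 ± 0.26, adjusted p = 6.38e-06). The rarer let-7c rose as well (+3.16 ± 0.89; +2.53 without osmotic replicate 3, +2.54 and +4.23 without standard replicates 2 and 3, and an adjusted p of 0.0611 without standard replicate 1). let-7b rose by less (+1.29 ± 0.28; adjusted p = 0.0619 without standard replicate 1). let-7f did not pass (+0.42 ± 0.24, adjusted p = 0.18), nor did miR-98, which shares the let-7 seed (−0.56 ± 0.26). let-7g-5p passed (+0.94 ± 0.27, adjusted p = 0.0174) but lost its call under RLE scaling, with DESeq2 and in a fit of hamster entries alone. It also lost it without any 1 of 4 libraries, with adjusted p of 0.0594 without standard replicate 3, 0.0829 without osmotic replicate 3, 0.0854 without standard replicate 2 and 0.12 without standard replicate 1. let-7 members differ by few bases, so the split of reads between them is uncertain; over entries of all species names the family's share still differed by 30.7 percentage points.

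The miR-17-92 cluster and its paralogs, which promote proliferation, went from 24.9%, 20.1% and 16.1% of hamster counts to 14.7%, 14.5% and 10.5%, and to 7.16%, 9.98% and 9.15% in ammonia cells. The share was lower in every osmotic library than in every standard one. Shares are parts of 1 total, so the larger let-7 share by itself lowers the shares of other families, here and below. How much of each lower share this accounts for was not tested. Of 10 members tested 3 rose and 3 fell, near the 27.4% and 20.1% of all entries, with a median of −0.28. The abundant miR-20a (14275 ± 1519 CPM to 3441 ± 1337 CPM, −2.04 ± 0.31), miR-25-3p and miR-18a-5p fell. The rarer miR-19a, miR-19b-3p and miR-106b-5p rose (+3.24 ± 0.87, +2.19 ± 0.60 and +2.28 ± 0.60). The call of miR-19a was lost without standard replicate 1 (adjusted p = 0.0605) or 2 (0.0526), and that of miR-106b-5p without standard replicate 2 (0.0543). miR-93-5p stayed without a call (−0.33 ± 0.25).

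In the miR-15/16 family the share of hamster counts was 5.06%, 6.40% and 6.69% in standard and 1.16%, 1.46% and 1.12% in osmotic libraries, through miR-16-5p above all. Of 8 members tested 3 fell (miR-16-5p, miR-322-5p and miR-195) and 1 rose, miR-497-5p, from 1 count in the standard libraries, beside 20.1% lower and 27.4% higher over all entries. That rise lost its call without standard replicate 1 (adjusted p = 0.13) or 3 (0.119), and without standard replicate 2 the standard group was at 0. miR-195 (−1.28 ± 0.43) lost its call without osmotic replicate 1 (adjusted p = 0.0946), standard replicate 2 (0.165) or standard replicate 3 (0.145). miR-15b-5p did not pass (−0.63 ± 0.29), though it did without osmotic replicate 3 (adjusted p = 0.0283) or standard replicate 1 (0.0136). The miR-23/27/24 clusters took 12.4%, 15.9% and 17.3% and 3.55%, 4.87% and 3.94%, with 3 of 5 members lower (miR-23a-3p, miR-23b-3p and miR-24-3p), 0 higher and a median of −1.41. miR-23b-3p (−1.41 ± 0.38) lost its call without standard replicate 2 (adjusted p = 0.056) or 3 (0.0546). Neither miR-27a-3p (−0.29 ± 0.28) nor miR-27b-3p (+1.07 ± 0.41, adjusted p = 0.0516; 0.00876 without osmotic replicate 3) passed. Of the miR-29 family 2 of 3 fell and 0 rose, and its share went from 1.76% ± 0.358 (mean ± SD, n = 3) to 0.302% ± 0.0567. Over entries of all species names, with the mouse miR-29a-3p in it, the miR-29 share went from 1.45% ± 0.283 to 0.749% ± 0.227 of all counts, a difference of −0.696 percentage points and so smaller than that for hamster names. For each of the shares of miR-17-92, miR-15/16, miR-23/27/24 and miR-29 the exact permutation p was 0.1.

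Some families were higher. All 3 tested members of the miR-30 family rose, from 0.0511% ± 0.0505 of hamster counts to 0.451% ± 0.164: miR-30a-5p, miR-30e-5p (+4.13 ± 0.84) and miR-30b-5p (+2.28 ± 0.60). Over all species names the miR-30 share went from 0.383% ± 0.177 to 2.14% ± 0.586 of all counts. The hamster entry miR-30b-5p read 749, 188 and 99.6 CPM in standard cells; it read +3.17 without standard replicate 1 and had an adjusted p of 0.0518 without standard replicate 2. cgr-miR-221-3p and cgr-miR-222-3p, a clustered pair that lowers the cell cycle inhibitor p27, both rose (+2.77 ± 0.32 and +1.85 ± 0.44). miR-221-3p went from 575, 520.0 and 312 CPM to 2538, 3967 and 2730.2 CPM, inside the range of ammonia cells for 1 library and below it for 2 (3613, 4586 and 3862 CPM). The list of miR-125, miR-100, miR-99 and miR-10 members was mixed, with 4 of 8 higher and 2 lower. cgr-miR-125a-5p, of a family that represses growth and differentiation genes, rose from 1861, 1909 and 1541 CPM to 7929.9, 6961 and 5750.2 CPM (+2.00 ± 0.25), while miR-10b-5p, made within a Hox cluster, fell from 11325 ± 444 CPM to 5992 ± 267 CPM (−0.88 ± 0.24). The call of miR-10b-5p was lost without standard replicate 2 (adjusted p = 0.078) or 3 (0.0546), and that of miR-10a-5p (−0.88 ± 0.31) without osmotic replicate 1 (0.13) or 2 (0.067) and standard replicate 2 (0.134) or 3 (0.119). miR-99a-5p (+1.24 ± 0.44) and miR-100-5p (+0.96 ± 0.34) passed as hamster entries but had the opposite sign, without a call, once summed with the other species names (−0.31 ± 0.33 and −0.33 ± 0.30). Both lost their calls without osmotic replicate 3 (adjusted p = 0.0961 and 0.141), standard replicate 2 (0.163 and 0.177) or standard replicate 3 (0.119 and 0.106), and miR-100-5p also without standard replicate 1 (0.11). miR-125b-5p did not pass (+0.83 ± 0.36, adjusted p = 0.0863; 0.0411 without standard replicate 1).

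**Figure D3:**
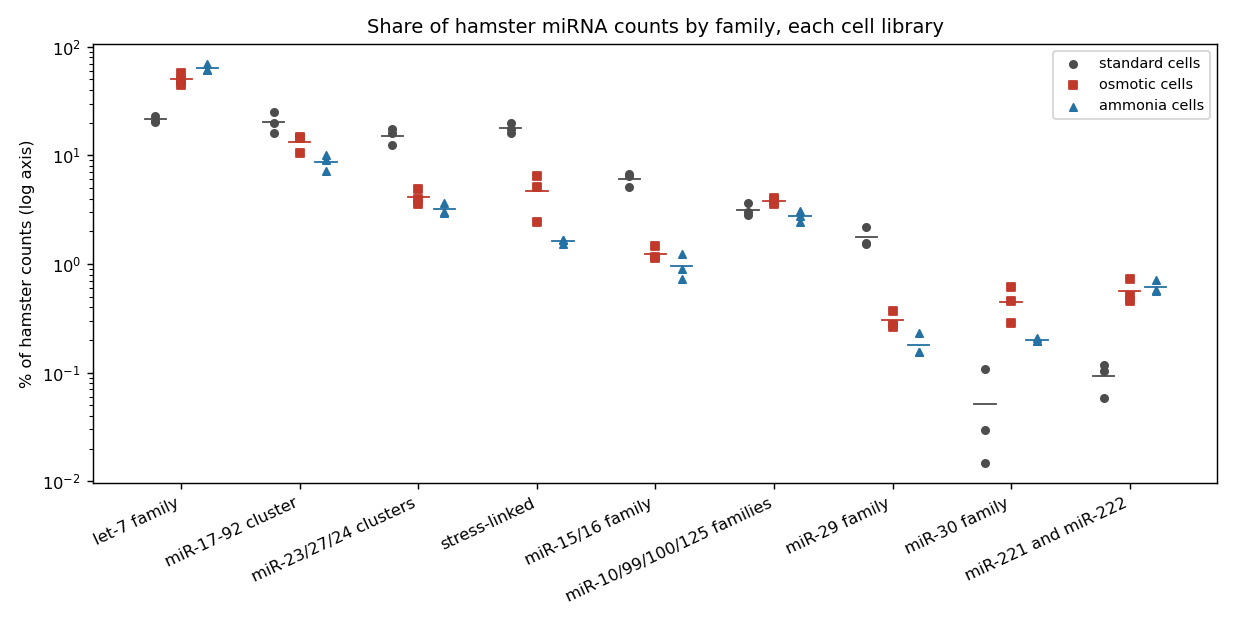
Share of hamster counts taken by 9 families or lists in each cell library (log axis); points are libraries and short lines group means, 3 libraries per group. The let-7 share is 20.2% to 23.1% in standard and 44.6% to 56.7% in osmotic cells, and the miR-15/16, miR-23/27/24 and miR-29 shares are lower in all osmotic than in all standard libraries.

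Smaller lists gave few calls. Of 4 tested members of the miR-181 family, known from lymphoid and muscle differentiation, miR-181a-5p rose (+1.18 ± 0.27) and miR-181b-5p fell (−0.82 ± 0.28); the latter lost its call without osmotic replicate 1 (adjusted p = 0.0622), standard replicate 2 (0.171) or standard replicate 3 (0.137). The epithelial miR-200 family was close to absent: 3 of 5 entries were at 0 in all 6 libraries, and miR-200c and miR-429 averaged 6.21 CPM or less in either group. Of the 4 tested p53-linked entries only miR-34c-5p passed. miR-192 missed the threshold (+2.26 ± 0.88, adjusted p = 0.0578; 0.0309 without osmotic replicate 3), and miR-34b-5p (+0.19 ± 1.17, negative under RLE scaling) and miR-194 (−0.48 ± 1.41) did not pass. Of 7 tested stress-linked entries 1 fell, miR-21-5p, and none rose. The values of miR-146b-5p, induced in inflammation, were 961, 891 and 1136 CPM in standard and 1470.1, 1375 and 835 CPM in osmotic cells (+0.32 ± 0.32, adjusted p = 0.447). Neither miR-708 (+0.76 ± 0.44) nor miR-132-3p (+0.37 ± 0.72) passed, and miR-210, induced by low oxygen, was not tested in either arm. The hamster name miR-708 gives no arm. The mouse entry miR-708-5p fell from a mean of 637 to 253 CPM (−1.31, adjusted p = 0.0132). The mouse entry miR-708-3p rose from 0 to 32.8 CPM (adjusted p = 0.0166). Of 16 tested miRNAs that others have altered in CHO cells to change growth or product yield, 7 rose and 2 fell, beside 27.4% and 20.1% of all entries: the falls were miR-23a-3p and miR-7a (5234 ± 449 CPM to 1494 ± 762 CPM, −1.81 ± 0.37), and the rises were the 3 miR-30 5p arms, both arms of miR-378 and the minor arms miR-92a-5p and miR-17-3p. In the Dlk1-Dio3 list 2 of 9 tested entries fell and 1 rose, miR-154-3p, from 4, 2 and 0 counts (+2.64 ± 0.91); it changed by +3.52 without standard replicate 1 and lost its call without standard replicate 2 (adjusted p = 0.134) or 3 (0.106). Of 3 tested markers of other cell types 1 rose, the neural-enriched miR-128-3p (+2.44 ± 0.51), and miR-486-5p passed, as a fall, only when osmotic replicate 3 was left out (−1.06, adjusted p = 0.00685). The hamster entry of the muscle marker miR-499-5p had no call (+0.14 ± 1.47), but the mouse entry fell from a mean of 210.3 to 30.5 CPM (−2.78, adjusted p = 0.00705), and the 2 summed fell as well (−2.21 ± 0.78, adjusted p = 0.0423).

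The ratio between the arms of 1 hairpin is read within a library and needs no scaling between libraries. Kit and pool still changed with the culture, and read processing may have. In 58 hairpins both arms together reached at least 20 counts in each of the 6 libraries, and in 35 the log2 ratio of 3p to 5p counts did not overlap between osmotic and standard cells, against 62.7% of pairs of all species names. In 30 of the 58 the ratio moved toward the arm rarer in standard cells, and in 22 of the 58 it did so without overlap, beside 33.3% of pairs of all species names. The rarer arm was defined from the same standard libraries, so part of such movement can come from that choice, which was not tested. For movement with or without overlap, here and in the 25 hairpins below, no share over all species names was computed. Where an arm had 0 counts in a shallow standard library the ratio depends on the 0.5 count added to each arm, so the text below keeps to the 25 hairpins with both arms counted in every osmotic and standard library, a restriction chosen after the values were seen that does not extend to the ammonia libraries. Of these 16 did not overlap, beside 61.5% for all species names. In 16 of the 25 the ratio moved toward the arm that was rarer in standard cells, in 13 of them without overlap, where 50% of such pairs of all species names did so without overlap. In 3 it moved away from that arm without overlap. The more abundant arm, by the group's mean log2 ratio, changed in 6 of the 25. Of the 25, only miR-10a and miR-221 (2 hairpins) had non-overlapping ratios between osmotic and ammonia cells, beside 12 of the 58. The share over pairs of all species names was not computed. For miR-221 the 5p arm had 0 counts in every ammonia library, so its ammonia ratios are set by the added 0.5 count.

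For miR-34c the log2 ratio of 3p to 5p was +5.98, +3.76 and +4.58 in the standard libraries, −2.72, −2.70 and −2.95 in the osmotic and −3.11, −1.76 and −2.52 in the ammonia libraries. The 3p arm was therefore the main one in standard cells and the 5p arm in both stressed cultures: the 5p arm held 3.74% of the hairpin's counts in standard, 87.3% in osmotic and 84.0% in ammonia cells. For miR-322 the log2 ratio of 3p to 5p was −3.03, −2.74 and −3.73 in the standard libraries, +5.13, +3.35 and +4.46 in the osmotic and +11.67, +4.87 and +5.02 in the ammonia libraries. Its 3p arm, 178 ± 45.2 CPM in standard and 721 ± 119.7 CPM in osmotic cells (+2.08 ± 0.37), went from 10.2% to 94.7% of the hairpin's counts. The ammonia ratio of +11.67 comes from replicate 1, which had 0 counts on the 5p arm, so it is set by the added 0.5 count. These ratios and shares hold hamster names only: in osmotic cells the mouse entry miR-322-5p averaged 155.5 CPM, more than the hamster 5p entry, and the rat entry miR-322-3p rose from 8.42 to 316 CPM. For miR-151 the log2 ratio of 3p to 5p was +1.03, +1.04 and +1.44 in the standard libraries, −1.55, −1.61 and −3.94 in the osmotic and −3.38, −3.18 and −3.15 in the ammonia libraries. The miR-151 5p arm rose (+1.41 ± 0.26) and the 3p arm fell (−1.87 ± 0.48), so that the 5p share went from 30.8% to 81.2%, and stood at 90.4% in ammonia cells. For miR-92a the log2 ratio of 3p to 5p was +9.55, +9.88 and +9.32 in the standard libraries, +4.07, +3.93 and +4.21 in the osmotic and +4.01, +5.02 and +4.15 in the ammonia libraries. Here the 3p arm remained the main one, and the 5p arm went from 0.128% to 5.63% of counts. The main arm also changed for miR-423 (5p from 37.9% to 65.3%) and miR-106b (3p from 45.3% to 74.4%), both close to even in standard cells, and for miR-340, whose groups overlapped.

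Both arms were tested for 58 hairpins. In 6 the arms were called in opposite directions and in 5 in the same direction, where 13.6% of hairpins of all species names had opposite calls. The 6 were miR-34c, miR-322, miR-151, miR-29b, miR-25 and miR-872. For miR-25 the abundant 3p arm fell while miR-25-5p rose from 2, 5 and 0 counts (+3.77 ± 0.83; +4.83 without standard replicate 2). For miR-872 the 5p arm fell (−1.51 ± 0.36) and the 3p arm rose from 1 count in all standard libraries (+4.01 ± 1.37); the latter call was lost without standard replicate 2 (adjusted p = 0.157) or 3 (0.131), and without standard replicate 1 the standard group was at 0. Summed with the mouse entry, miR-872-3p changed by +2.07 ± 0.81 and had no call (adjusted p = 0.0596).

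**Figure D4:**
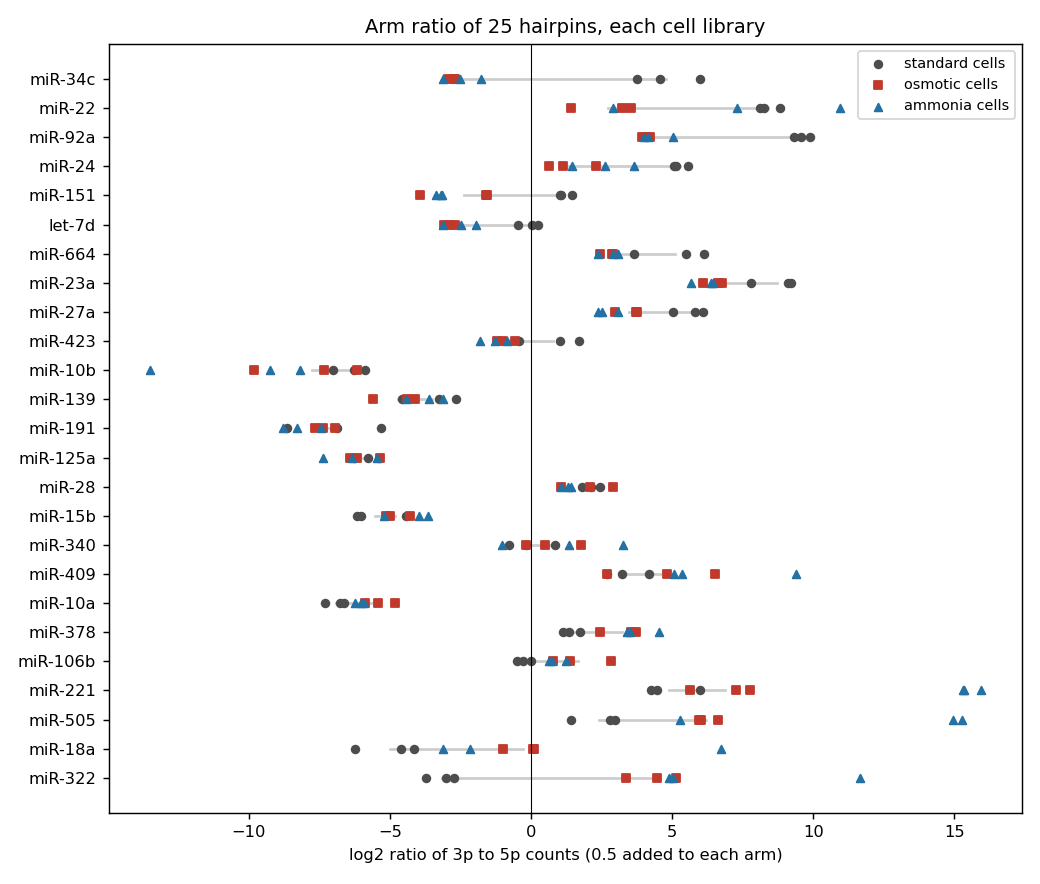
Log2 ratio of 3p to 5p counts (0.5 added to each arm) of the 25 hairpins with both arms counted in all osmotic and standard libraries; each point is 1 library and a grey line joins the standard and osmotic means. The largest shifts, miR-34c at the top (means 4.77 to −2.79) and miR-322 at the bottom (−3.17 to 4.31), cross 0, and the ammonia points lie on the osmotic side. The miR-322 ammonia point at 11.67, the miR-22 ammonia point at 10.94 and the ammonia points near 15 have no counts on the 5p arm.

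Some groups of neighbouring miRNA genes held calls in both directions, again between kits as well as cultures. Hamster entries were matched by name to RefSeq miRNA genes of the hamster assembly CriGri-PICRH-1.0 (328 matched, 307 to exactly 1 gene), and genes within 10 kb of each other were grouped. Of 17 groups with at least 2 tested hairpins, 10 held both an entry called higher and one called lower. The groups held 2 to 11 tested entries, and with 27.4% of all entries called higher and 20.1% lower a large group can hold both; the count was not tested. In 3 of these (Mir34c with Mir34b, Mir322 with Mir503 and others, Mir365 with Mir193b) the opposite calls came from names of 1 hairpin, and in 7 from different hairpins. Some of these 7 rest on calls lost when 1 library was left out: miR-497-5p and miR-195 in the group of Mir497 and Mir195, miR-181b-5p in that of Mir181b and Mir181a and miR-154-3p in the Dlk1-Dio3 group, with the values given above. In the group of Mir23a, Mir27a and Mir24, miR-27a-5p (+1.86 ± 0.51) had adjusted p of 0.0854 and 0.0595 without standard replicates 2 and 3. In the group of Mir106b, Mir93 and Mir25, which lie in an intron of Mcm7 in mouse and human, both arms of miR-106b rose (+2.28 ± 0.60 and +4.03 ± 0.42), miR-25-3p fell (−1.92 ± 0.35) and miR-93-5p did not pass. In the group of Mir191 and Mir425, miR-191-5p rose (+2.17 ± 0.30) and miR-425-5p fell (−2.25 ± 0.28). The genes Mir17 to Mir92a gave 9 tested entries, 4 higher and 2 lower. The groups of Mir221 and Mir222 (2 higher), of Mirlet7d, Mirlet7f and Mirlet7a-1 (1 higher) and of Mir23b, Mir27b and Mir24-1 (1 lower) were among the 7 without calls in both directions.

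**Figure D5:**
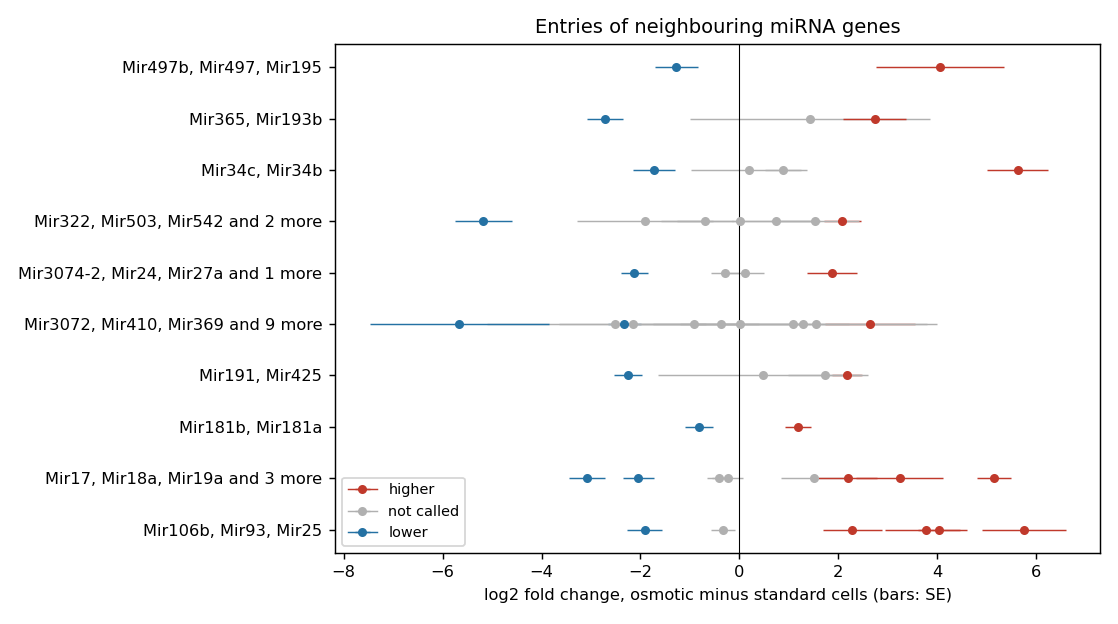
Log2 fold change between osmotic and standard cells, with SE, of tested entries from the 10 groups of neighbouring miRNA genes that held calls in both directions; entries at 0 in every standard library are left out. Each row has a red point (called higher) right of 0 and a blue point (called lower) left of it, as for Mir191 and Mir425 at +2.17 and −2.25.

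Inside 1 kit and 1 pool, osmotic cells were compared with ammonia cells. Of 197 hamster entries tested none was called by edgeR, as of all 354 entries (0% called), and the smallest adjusted p was 0.0798. At an unadjusted p under 0.05 there were 38 hamster entries, 27 of them higher in osmotic cells, beside 15.8% of all entries, and DESeq2 called 19 higher and 11 lower, beside 11.3%. The groups did not overlap for 54 hamster entries, 43 of them higher in osmotic cells, beside 24.6%. This comparison turned on osmotic replicate 3: without it 39 hamster entries were called higher and 16 lower of 225 tested (19.1% of all entries called), of which 21 were at 0 in every ammonia library. Those named above included miR-21-5p (+1.22 ± 0.17 between osmotic and ammonia cells, adjusted p = 0.00813), miR-30a-5p (+1.74 ± 0.21), miR-151-3p (+1.60 ± 0.19), miR-25-3p (+1.01 ± 0.18) and miR-148b-3p (+2.78 ± 0.47) as higher, and let-7a (−1.14 ± 0.30), let-7d-5p (−1.27 ± 0.28), miR-365-3p (−1.90 ± 0.26) and miR-486-5p (−2.33 ± 0.22) as lower in osmotic cells. With all 3 osmotic libraries miR-21-5p stood at +0.97 ± 0.29 (adjusted p = 0.111) and let-7d-5p at −1.03 ± 0.30 (0.111). Of the 93 entries called between osmotic and standard cells, 91 were tested here and 27 had osmotic and ammonia ranges that did not overlap.

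The authors' deposited table gives a value for 286 hamster entries in the contrast of osmotic with standard cells. By the authors' deposited table, entries numbering 54 were higher and 42 lower at a false discovery rate under 0.05, and 78 of these were called here in the same direction and 0 in the opposite one. For osmotic against ammonia cells the authors' deposited table gives 30 higher and 18 lower.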

How the data were processed

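Mature miRNA counts of 6 CHO-K1 cell libraries were compared, with 3 ammonia cell libraries as a same-kit reference. The deposited table holds raw counts per mature name and values the authors call CPM, which are scaled to the authors' own effective library sizes and are treated as a signal. Both kinds of column are deposited per library, and per the file headers stressed libraries went through trimming and a length limit before reads were grouped on mature names. Per the submitters' processing notes, cutadapt 2.8, FastQC 0.10.1 and the builds GRCh38, GRCm38 and Rnor_6.0 took part; which program counted the reads is not stated. The authors' deposited table of comparisons supplied other values, fold changes and false discovery rates, for the closing paragraph of the results only, and 54 further per-sample columns in it were not used.

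From the counts, CPM was computed as count over summed count. Tests used edgeR 4.0.16 (quasi-likelihood, TMM scaling, filterByExpr by group, Benjamini-Hochberg adjustment over all entries tested, of every species name) in R 4.3.3 with limma 3.58.1, and the SE is the log2 fold change over the root of F. DESeq2 1.42.0 was an alternative. Family shares and arm ratios used exact two-sided permutation tests (scipy 1.17.1). The edgeR script was tested on simulated data with less spread between replicates than these data have. That run does not show how the test behaves at the spread here. Named entries passed, reached 50 CPM in either group and did not overlap, 12 in each direction; the 10 most abundant per group and 4 per list were added. A few further list, arm and neighbour entries and entries of other species names were chosen after their values were seen. Members and lists were chosen with earlier results of these data known. Floors (3 counts) cover counting error only, while the SE of a fold change includes the spread between replicates that edgeR estimated. Replicates are biological per the labels. No same-group libraries agreed within sampling noise.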

Additional observations from a re-analysis of the deposited data

How the results depend on the processing

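Kit and pool changed with the culture and no setting separates them. Depth limits the standard libraries: 73 tested entries had fewer than 10 counts over the 3 of them. The 93 hamster calls between osmotic and standard cells numbered 84 with RLE scaling, 86 with library size alone, 88 with the authors' sizes, 96 with DESeq2, 107 without a filter, 77 in a fit of all cell libraries, 79 in a fit of hamster entries, 89 after summing species names, and 80 above a minimum of 50 CPM, a setting chosen after seeing the data. In a fit of all 27 libraries they numbered 30 (27 higher, 3 lower), of which 27 were among the 93. With 1 library left out they ranged from 66 to 96 (higher 46 to 60, lower 20 to 36). The tested set changed in each such fit. Fewer hamster entries than in the main fit were tested without an osmotic library, and more without a standard library. The range is therefore not over 1 fixed set of entries. RLE scaling moved the median of all entries by −0.24, the authors' sizes by −0.12 and library size alone by −0.04 on the log2 scale. The let-7 share difference ranged from 25.3 to 31.4 percentage points and that of miR-17-92 from −9.25 to −4.85. Arm ratios without overlap numbered 35 of 58, 36 to 42 with 1 library left out and 16 of the 25 with both arms counted, also chosen after seeing the data. Leaving out a library narrows a group's range over the same 58 hairpins. That count could therefore not fall, and its range is no check.

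The 0 calls between osmotic and ammonia cells became 30 with DESeq2, 8 in a fit of all cell libraries, 17 in a fit of all libraries, 1 with the replicate block, and 0 to 55 with 1 library left out. Same-numbered libraries deviated together by r = 0.034, 0.034 and 0.14 (osmotic and standard) and 0.0367, 0.10 and 0.0101 (osmotic and ammonia), so the numbers do not pair them, and not every library correlated best with its own number. The block gave 68 higher and 29 lower calls between osmotic and standard cells.

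Of 54 named entries called, 18 kept their call in every setting that tested them and 0 changed sign. Uncalled named entries changed sign as follows, and the cause was not tested. In the fit of all 27 libraries miR-1260 was at +0.24, miR-15b-5p +0.10, miR-181c-5p +0.72, miR-181d-5p +0.039, miR-194 +0.30, miR-27a-3p +0.44, miR-486-5p +0.28, miR-92a-3p +0.32 and miR-93-5p +0.41. miR-34b-5p was at −0.12 with RLE scaling and with DESeq2, and −0.0715 with hamster entries only. miR-409-3p was at −0.24 with RLE scaling, −0.0132 with library size, −0.13 with the authors' sizes, −0.25 with DESeq2, −0.0865 with all cell libraries, −0.28 with hamster entries only, −0.0834 summed, −0.0157 with the replicate block and −0.18 above 50 CPM. miR-499-5p was at −0.16 (RLE), −0.0396 (authors' sizes), −0.17 (DESeq2), −0.0372 (all cell libraries), −0.16 (hamster only), −2.21 (summed, where it passed with an adjusted p of 0.0423) and −0.93 (replicate block). miR-181c-5p was at +0.0375 without a filter. Over all species names the share differences of the list of miR-125, miR-100, miR-99 and miR-10 (−0.51) and miR-181 (−0.0101) changed sign. With 1 library left out, values of both signs were seen for miR-132-3p (−0.0973 to +0.88), miR-181c-5p (−0.58 to +0.26), miR-200c (−0.76 to +0.46), miR-34b-5p (−0.62 to +0.91), miR-409-3p (−0.14 to +0.12) and miR-499-5p (−0.15 to +0.55).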
